A study of Mus musculus with 8 samples.

Results

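For 6 widely expressed genes of the mouse X chromosome, the time in S phase at which their surroundings replicate was examined. These genes are subject to X inactivation, by which genes on the inactive X (Xi) are silenced. The genes are Hprt, Ogt, Atrx, Pgk1, Gla and Pdha1, and each was followed as the 500 kb bin that holds its start, so that 6 of the 343 bins of chromosome X were described. They were ranked among the 269 bins whose 4 allele scores all lay from −3 to 3 and were not repeated at least 20 times in a track. All 6 bins passed this filter. Repli-seq was carried out on female clonal MEFs, embryonic fibroblasts from F2 littermates of a cross between M.m.domesticus FVB and M.m.Castaneus mice. The wt cells (clone Wt2A1) carry wild-type SmcHD1, and the mut cells (clone Mut5A6) carry the MommeD1 point mutation on both copies of this gene, which encodes a non-canonical SMC protein enriched on Xi. In both clones Xi is taken as the castaneus chromosome and the active X (Xa) as the FVB chromosome, from the names of the tracks and the study's text, since the sample descriptions mark both allele tracks Xa. Sorted G1-phase and S-phase fractions gave 8 samples, read as 2 replicates of each fraction per genotype. In this reading a title ending in G2 is the replicate of a G1 fraction and not G2 phase, since the protocol sorts G1 and S alone.

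The deposited score derives from the S/G1 read ratio and is higher where replication is earlier. The methods call it a Z-score, but in bins left out here the allele tracks reach 11556, whereas a Z-score over 343 bins cannot pass 18.5, and the unsplit tracks have SDs of 0.123 and 0.166. The scale of the files is therefore not settled, and a score unit has no known size in time. Replicates are pooled into 1 value per bin, allele and genotype, so no error between replicates, no depth and no test across samples can be given, and genotype cannot be told apart from clone. As a measure of how far a single bin can be trusted, its score was set against the average of the bins on its left and right. The SD of that distance over 229 bins, called the bin-to-bin SD here, was 0.682 on Xa and 0.492 on Xi of wt cells, and 0.717 on Xa and 0.915 on Xi of mut cells. True differences between adjoining bins also enter it. The libraries are genomic DNA, so neither expression of these genes nor the identity of the cells could be checked in them.

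X inactivation silences most genes of a single X chromosome in each female cell, through Xist RNA and the chromatin changes that follow its spreading. Genes expressed in nearly all tissues usually lie in gene-rich chromatin that replicates early in S phase, and their silent copies on Xi usually replicate later. The timing of a gene on Xa and on Xi in the same cells therefore gives an internal contrast, since both copies pass through the same S phase.

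Hprt encodes a purine salvage enzyme, long used for selection in cultured cells, and lies on the plus strand at chrX:52988137-53021659 (mm10, GENCODE M21). Its start is in the bin from 52500001 to 53000000, but 21659 of its 33523 bases run into the next bin. Ogt, at chrX:101640060-101684351 on the plus strand, encodes the enzyme that attaches O-linked N-acetylglucosamine to nuclear and cytoplasmic proteins. Atrx, on the minus strand at chrX:105797615-105929403, encodes a chromatin remodeller that deposits histone H3.3 at heterochromatin. Pgk1, at chrX:106187100-106203699 on the plus strand, encodes the glycolytic enzyme phosphoglycerate kinase. The bins of Atrx and Pgk1 adjoin each other and are not independent values. Gla encodes the lysosomal enzyme alpha-galactosidase A and is on the minus strand at chrX:134588149-134601125. Pdha1 encodes the E1 alpha subunit of pyruvate dehydrogenase and is on the minus strand at chrX:160122209-160138413.

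The bins hold further genes, whose timing cannot be separated from that of the gene named. The Gla bin overlaps 12 protein-coding genes, more than 95.9% of analysed bins, among them the ribosomal protein gene Rpl36a, Hnrnph2, Btk, Timm8a1 and 5 genes of the Armcx family. The Pgk1 bin overlaps 8, including Atp7a and Cox7b, and the Ogt bin overlaps 6, including Taf1. Phf6 and Gpc3 are among the 4 genes of the Hprt bin. Magt1 reaches into both the Atrx bin, with 4 genes, and the Pgk1 bin. The Pdha1 bin overlaps 3, namely Map3k15, Pdha1 and Adgrg2.

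In GC content all 6 bins lay above the median of the analysed bins, whereas in repeats they differed. Their GC content ranged from 40.4% in the Pgk1 bin to 43.5% in the Ogt bin, with a median of 40.8% against 39.0% over all analysed bins. Repeat-masked bases made up between 30.6% of the Hprt bin and 49.0% of the Atrx bin, against a median of 44.2% over all analysed bins.

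Promoter windows of 300 bases from RefSeq (GRCm38.p6) were found for all 6 genes, and were searched for CpG, the dinucleotide whose methylation marks promoters of silenced genes on Xi. The count of CG in the window was 24 for Pgk1, 22 for Hprt, 21 for Pdha1, 20 for Ogt, 17 for Gla and 11 for Atrx, against a median of 7 over 1223 promoter windows of chromosome X, of which 92.7% hold at least 1. The Atrx window was close to the middle of these, with fewer CG in 63.9% of windows. The motif GGGCGG, searched on both strands, had 5 matches in the Pgk1 window, 3 in that of Hprt, 2 in that of Gla and 1 in that of Ogt, with none for Atrx and Pdha1. It occurs in 33.9% of the chromosome X windows. CCAAT, also searched on both strands, had 4 matches for Atrx, 3 for Gla and 1 for Pgk1, and occurs in 45.0% of windows. A match describes the letters and shows no binding. The 250 bases upstream of the RefSeq start are shown for the genes with the highest rise, the next highest rise and the only fall of the Xi score described below. They are written 5′ to 3′ on the strand of the gene, with each CG in capitals. The RefSeq start of Gla lies inside the GENCODE gene given above, so that 120 of the 250 bases shown for it fall within that gene.
Pgk1, chrX:106186850-106187099, plus strand: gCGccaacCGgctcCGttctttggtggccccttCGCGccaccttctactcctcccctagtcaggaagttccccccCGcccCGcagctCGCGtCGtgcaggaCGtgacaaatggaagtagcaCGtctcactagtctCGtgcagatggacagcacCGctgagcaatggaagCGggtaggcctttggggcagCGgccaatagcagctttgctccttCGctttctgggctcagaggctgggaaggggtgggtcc
Pdha1, chrX:160138431-160138680, minus strand: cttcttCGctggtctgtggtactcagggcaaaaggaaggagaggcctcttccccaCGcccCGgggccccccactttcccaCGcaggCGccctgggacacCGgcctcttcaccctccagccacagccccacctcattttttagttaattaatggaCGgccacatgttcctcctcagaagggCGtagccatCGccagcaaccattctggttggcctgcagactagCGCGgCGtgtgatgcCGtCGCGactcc
Gla, chrX:134601006-134601255, minus strand: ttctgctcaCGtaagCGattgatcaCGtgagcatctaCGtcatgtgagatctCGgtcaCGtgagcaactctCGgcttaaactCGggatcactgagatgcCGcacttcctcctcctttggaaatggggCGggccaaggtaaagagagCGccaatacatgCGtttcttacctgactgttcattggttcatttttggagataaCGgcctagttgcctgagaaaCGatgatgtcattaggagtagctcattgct
The shown stretches hold 17, 15 and 14 CG, and those of the genes not shown hold 17 at Hprt, 15 at Ogt and 6 at Atrx.

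On wt Xa all 6 bins were early. The score was 1.60 at Pgk1, 1.23 at Gla, 1.08 at both Ogt and Pdha1, 0.865 at Atrx and 0.857 at Hprt. Every one of them lay above 0, as did 40.5% of analysed bins. As ranks, meaning the percentage of analysed bins with a lower score in the same track, these values ran from 79.9 at Hprt to 94.1 at Pgk1. No pair of neighbours in this order differed by more than the bin-to-bin SD of wt Xa, and even the distance from Pgk1 to Hprt, 0.744, only just exceeded it.

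On wt Xi all 6 scores were below 0, as were all but 5.95% of analysed bins, and their order was another. The score was −0.122 at Gla, −0.484 at Ogt, −0.902 at Hprt, −1.13 at Pdha1, −1.22 at Pgk1 and −1.36 at Atrx. No neighbours in this order differed by more than the bin-to-bin SD of 0.492, whereas Gla and Atrx at its ends were 1.24 apart. The wt Xi ranks spread far more widely than those on Xa, from 19.7 at Atrx and 28.6 at Pgk1, over 37.2 at Pdha1 and 56.9 at Hprt, to 84.4 at Ogt and 91.8 at Gla. Pgk1 thus had the highest score of the 6 genes on wt Xa and the second lowest on wt Xi.

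The wt gap, Xa minus Xi, was above 1 score unit at all 6 genes, a size reached in 36.4% of analysed bins, of which 75.8% had a gap above 0. It was 2.82 at Pgk1, 2.23 at Atrx, 2.20 at Pdha1, 1.76 at Hprt, 1.57 at Ogt and 1.35 at Gla, with a median of 1.98 against 0.650 over all analysed bins. Each gap exceeded the bin-to-bin SD of this difference, 0.749, by a factor from 1.81 at Gla to 3.77 at Pgk1. Only 8 of the analysed bins had a larger wt gap than Pgk1. The tracks were scaled separately, and their medians over analysed bins were −0.446 on Xa and −0.981 on Xi in wt, and −0.388 and −0.934 in mut. With each track centred on its median and divided by its median absolute deviation, the wt gap was −0.512 at Gla and 0.417 at Ogt, and with centring alone it was 0.819 at Gla, so that a gap above 1 at all 6 genes did not hold under these scalings. The gap was therefore also taken between ranks. Atrx, Pgk1 and Pdha1 then stood 61.0, 65.4 and 48.7 points higher on Xa than on Xi, and Hprt 23.0 points. Ogt was 2.23 points higher and Gla 1.86 points lower. Rank gaps above 25 points were found in 22.7% of analysed bins. In the single bin, Ogt and Gla thus ranked much alike on Xi and Xa, although their scores were lower on Xi. At Ogt this did not hold with the mean of 3 bins (the bin of the gene and its 2 neighbours), with which the wt rank gap was 42.8 points. At Gla it was then 10.4 points, a shift within the bin-to-bin SD of 31.0 points. The wider gaps of the single bins also changed with this mean, to 22.7 points at Atrx and 22.3 at Pdha1, both under 25, 39.0 at Pgk1 and 53.9 at Hprt.

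**Figure D1:**
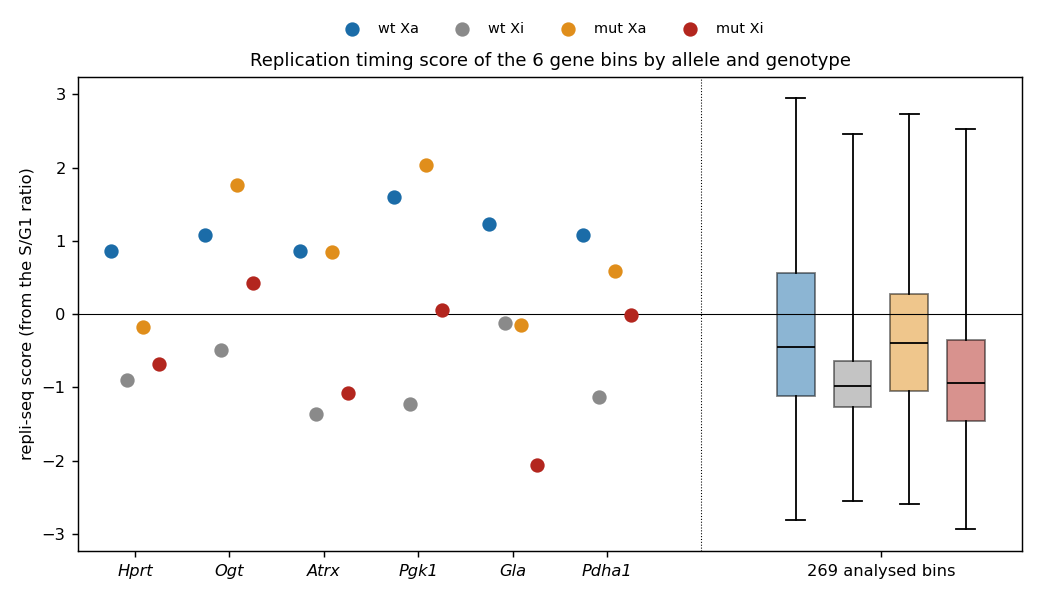
Repli-seq score (y axis, from the S/G1 ratio, scale not settled) of the 6 gene bins, with 1 point per allele and genotype, beside boxes of the same 4 tracks over all 269 analysed bins (box, quartiles with the median; whiskers, lowest and highest bin). All blue points (wt Xa) lie above 0 and all grey points (wt Xi) below it, whereas the red points (mut Xi) spread from −2.06 at Gla to 0.431 at Ogt.

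In mut cells the Xi score was higher than in wt cells at 5 of the 6 genes, a direction found in 50.2% of analysed bins. It was 0.431 at Ogt, 0.0586 at Pgk1, −0.0103 at Pdha1, −0.677 at Hprt, −1.07 at Atrx and −2.06 at Gla. Ogt and Pgk1 were the genes with a score above 0, as in 17.8% of analysed bins. Of the neighbours in this order, Atrx and Gla differed by more than the bin-to-bin SD of mut Xi.

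Relative to wt, the Xi score of mut was higher by 1.28 at Pgk1, 1.12 at Pdha1 and 0.915 at Ogt, and by 0.289 at Atrx and 0.225 at Hprt. Changes above 1 were found in 15.6% of analysed bins. The bin-to-bin SD of the Xi change was 1.09, so Pgk1 and Pdha1 lay just outside it and Ogt, Atrx and Hprt within it. At Gla the Xi score was lower in mut by 1.93 units, a difference in the other direction, and 7 analysed bins had a lower value. Falls beyond 1 unit occurred in 12.3% of analysed bins. The median of the 6 changes was 0.602, against 0.00300 over all analysed bins. It was 0.360 with the mean of 3 bins and 0.936 with tracks centred and divided by their median absolute deviation. The 5 higher values kept their direction under every alternative run, whereas the fall at Gla turned to a rise of 0.442 with the mean of 3 bins. With that mean the rise was 0.166 at Pgk1, 0.695 at Pdha1 and 0.0443 at Hprt, and 1.62 at Ogt, so that Ogt then lay above 1.09 and Pgk1 and Pdha1 below it.

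Ranks on Xi showed where the change moved a gene against the rest of the chromosome. Pgk1 went from 28.6 to 83.3 and Pdha1 from 37.2 to 81.8, both beyond 25 points, as in 24.2% of analysed bins. Atrx went from 19.7 to 42.8, by 23.0 points, and stayed in the later part of the track. Ogt, already at 84.4 in wt, was at 88.8 in mut, and Hprt was at 56.9 and 61.0. Gla went from the highest rank of the 6 genes on wt Xi, 91.8, to the lowest on mut Xi, 9.67. Moves of more than 25 points downward were also found in 24.2% of analysed bins. These moves belong to the single bins. With the mean of 3 bins the Xi rank change was 6.32 points at Pgk1 and 12.3 at Pdha1, neither beyond 25, and 46.8 at Ogt, and at Gla it was 3.72 points upward.

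**Figure D2:**
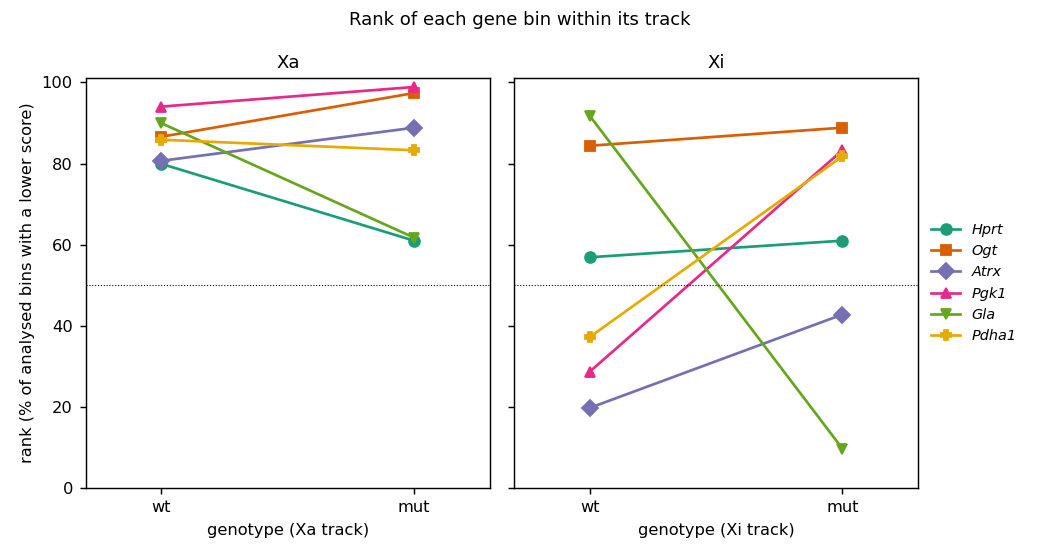
Rank of each gene bin in wt and mut (y axis, percentage of the 269 analysed bins with a lower score in the same track), for Xa on the left and Xi on the right; the dotted line marks 50. On Xi the lines of Pgk1 and Pdha1 rise across the middle, from 28.6 to 83.3 and from 37.2 to 81.8, and that of Gla falls from 91.8 to 9.67.

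On Xa the genes were divided between higher and lower scores in mut. The mut Xa score was 2.03 at Pgk1, 1.76 at Ogt, 0.848 at Atrx, 0.585 at Pdha1, −0.146 at Gla and −0.171 at Hprt. Neighbours in this order differed by more than the bin-to-bin SD between Ogt and Atrx and between Pdha1 and Gla. The score was above 0 at 4 genes, a level reached in 34.6% of analysed bins. Against wt it was higher by 0.674 at Ogt and 0.431 at Pgk1, a direction seen in 43.1% of analysed bins, and the Atrx value differed by −0.0166. Pdha1 had a change of −0.494, Hprt of −1.03 and Gla of −1.38. The last 2 exceeded the bin-to-bin SD of the Xa change, 0.873, and drops beyond 1 unit occurred in 16.7% of analysed bins. In ranks the Xa change was −28.3 points at Gla and −19.0 at Hprt, and lay between −2.60 and 10.8 points at the other 4 genes. The fall at Hprt belongs to the bin of its start, since the Xa rank change was 4.09 points in the next bin and 17.5 points with the mean of 3 bins. At Gla the Xa change with that mean was −0.608, within the bin-to-bin SD, and −7.06 points in ranks.

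In the single bins, both alleles of Gla scored lower in mut, whereas both alleles of Ogt and Pgk1 scored higher. At Pdha1 and Hprt, Xi was higher and Xa lower in mut. With the mean of 3 bins these directions held at Pgk1 and Pdha1 only. The Xa change was then −0.264 at Ogt and 0.288 at Hprt, and the Xi change at Gla was 0.442. Atrx had almost the same Xa score in both genotypes, with an Xi change well within the bin-to-bin SD.

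**Figure D3:**
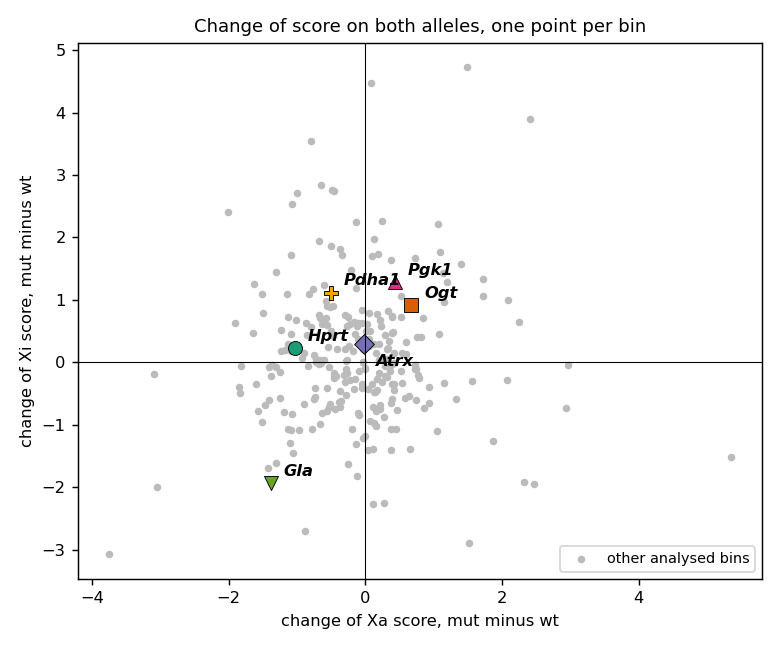
Change of the Xi score (y axis, mut minus wt) against that of the Xa score (x axis, mut minus wt) for the analysed bins, with the 6 genes named. Gla lies low on both axes at −1.38 and −1.93, Ogt and Pgk1 lie above 0 on both, and Atrx is near the centre.

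Xa stayed above Xi in mut at all 6 genes, as in 69.1% of analysed bins. The mut gap was 1.97 at Pgk1, 1.92 at Atrx, 1.91 at Gla, 1.33 at Ogt, 0.595 at Pdha1 and 0.507 at Hprt. It was above 1 at 4 of them, compared with 27.9% of analysed bins, and its median of 1.62 stood against 0.468 over all analysed bins. The bin-to-bin SD of the mut gap was 1.13, so the gaps at Pdha1 and Hprt lay within it. With the mean of 3 bins a gap above 1 was found at 3 genes, Atrx, Pgk1 and Hprt, the last with 1.85, and the gap was 0.336 at Ogt and 0.582 at Gla. With tracks centred on their medians the mut gap at Hprt was −0.0398, and with each also divided by its MAD (median absolute deviation) it was −0.143 at Hprt and −0.226 at Pdha1. From wt to mut the gap narrowed at 5 genes, by 1.61 at Pdha1, 1.25 at Hprt, 0.849 at Pgk1, 0.305 at Atrx and 0.240 at Ogt, and was wider by 0.557 at Gla. A narrower gap was found in 57.2% of analysed bins. The bin-to-bin SD of this narrowing was 1.44, and Pdha1 alone exceeded it. The mean of 3 bins gave a wider gap in mut at Hprt and Atrx, by −0.244 and −0.148 on this scale, and a narrower one at Gla, by 1.05. The narrowing was then 1.88 at Ogt, the highest of the 6, and 0.0901 at Pgk1. At Ogt it was −0.311 with tracks divided by their median absolute deviation. Between ranks the gap narrowed at 4 genes, a direction found in 48.3% of analysed bins, and the narrowing was −6.32 points at Ogt and −53.9 at Gla, a wider gap in mut at both and at Gla the largest change of the 6. The median narrowing was 19.0 points, and with the mean of 3 bins it was 4.46 points, with 3 genes above 0. With that mean the rank gap no longer widened at Ogt and Gla, where it narrowed by 44.2 and 10.8 points.

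What made up the narrowing differed between the genes. Most of it at Pdha1 was the higher Xi score, 1.12 of 1.61, and the rest the lower Xa score. With the mean of 3 bins Xa gave the larger part there, with a narrowing of 1.58, an Xa change of −0.881 and an Xi change of 0.695. Hprt had the reverse in the bin of its start, with 1.03 of 1.25 from Xa. In the next bin, which holds most of the gene, the narrowing was 0.360, of which 0.185 came from Xi and the rest from Xa. At Pgk1 the Xi score was higher by more than the gap narrowed, because the Xa score was higher in mut as well. In ranks, the bin of the Hprt start stood at 61.0 on both mut alleles, but Xa was 34.2 points above Xi in the next bin and 56.5 points above it with the mean of 3 bins. In the same ranks of single bins, Pdha1 stood at 83.3 on mut Xa and 81.8 on mut Xi. Pgk1 still ranked 15.6 points higher on Xa, Atrx 46.1 and Gla 52.0 points, but with the mean of 3 bins the rank gap was −0.372 points at Gla and 40.9 at Pgk1. Rank gaps above 25 points in mut were found in 19.0% of analysed bins.

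Reads not split by allele gave a separate score, whose scale differs from that of the allele scores and is not explained. At Hprt this score was 0.115 for wt cells and 0.256 for mut cells. It was, in the same order of genotypes, 0.215 and 0.361 at Ogt, 0.165 and 0.207 at Atrx, 0.254 and 0.297 at Pgk1, and 0.195 and 0.231 at Pdha1. Gla had 0.222 and 0.170. It was thus the member with a lower unsplit score in mut; a higher one was found in 51.3% of analysed bins. The spread of this track over analysed bins was larger in mut, with an SD of 0.166 against 0.119. In ranks, Gla went from 92.9 to 74.3 and Hprt from 72.5 to 88.1. The rank change was −6.69 points at Pgk1, −4.46 at Pdha1, −1.49 at Atrx and 6.32 at Ogt, so the rank was lower in mut at 4 of the 6 genes. The rank of Gla in the unsplit reads of mut, 74.3, is above its 61.7 on mut Xa and far above its 9.67 on mut Xi. At Hprt the unsplit rank of mut, 88.1, lay above the 61.0 of both mut alleles. It was higher than in wt, although the Xa rank change there was −19.0 points and the Xi rank change 4.09. Why the unsplit and allele ranks of these bins differ was not tested.

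The neighbourhoods, 3 bins or 1.5 Mb on each side, showed how far the values of a single bin extended. Pgk1 and Atrx lay in a narrow early peak of wt Xa. The bins on its sides scored −1.18 before Atrx and 0.304 after Pgk1. On wt Xi the same bins formed a trough, since the adjoining scores of −0.353 and −0.375 were higher than those of Atrx and Pgk1. In mut the Xi score of Pgk1 stood 1.13 above that of the Atrx bin and 1.50 above that of the bin after it, at −1.45. The higher Xi score at Pgk1 was not shared by the bin after it, which changed by −1.07, and the mean Xi change over the 3 bins centred on Pgk1 was 0.166. The bin before Atrx holds the start of Pbdc1, reported to escape X inactivation, and had an Xi change of −0.735.

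Around Ogt the wt Xa score was above 0 in all 6 flanking bins, and the Xi change was above 0 in 4 of them. The largest was 2.84 in the bin just before, which holds the RNA-binding protein gene Nono, and the bin after Ogt, which holds Rps4x, had 1.10. The third bin after Ogt holds Xist and Jpx, which are active on Xi. It was the flanking bin with a wt Xi score above 0, at 0.443. Around Pdha1 the Xi change was above 0 in 5 of the 6 flanking bins, but with values from −0.208 to 0.760 each lay within the bin-to-bin SD, and the change of Pdha1 itself, 1.12, exceeded all of them.

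The Gla bin, in contrast, departed from its surroundings. Its wt Xi score of −0.122 was above those of all 5 analysed flanking bins, which lay from −1.12 to −0.564, and its mut Xi score of −2.06 was below all of theirs. The bin just before it had an Xi change of 2.75, from −1.12 to 1.63, and the bin just after it of 0.509. The 3 bins together had a mean Xi change above 0, as given above, and 3 of the 5 analysed flanking bins had a higher Xi score in mut. The other 2, the second bin before Gla and the third after it, were lower by smaller amounts, with changes of −0.587 and −0.670. Hprt had 5 analysed flanking bins, with Xi changes from −0.426 to 0.959. In the bin just after its start, which holds the larger part of the gene, the wt gap was 2.06, the mut gap 1.70 and the Xi change 0.185. With the mean of 3 bins, the Xa change at Hprt was 0.288 and no longer below 0.

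**Figure D4:**
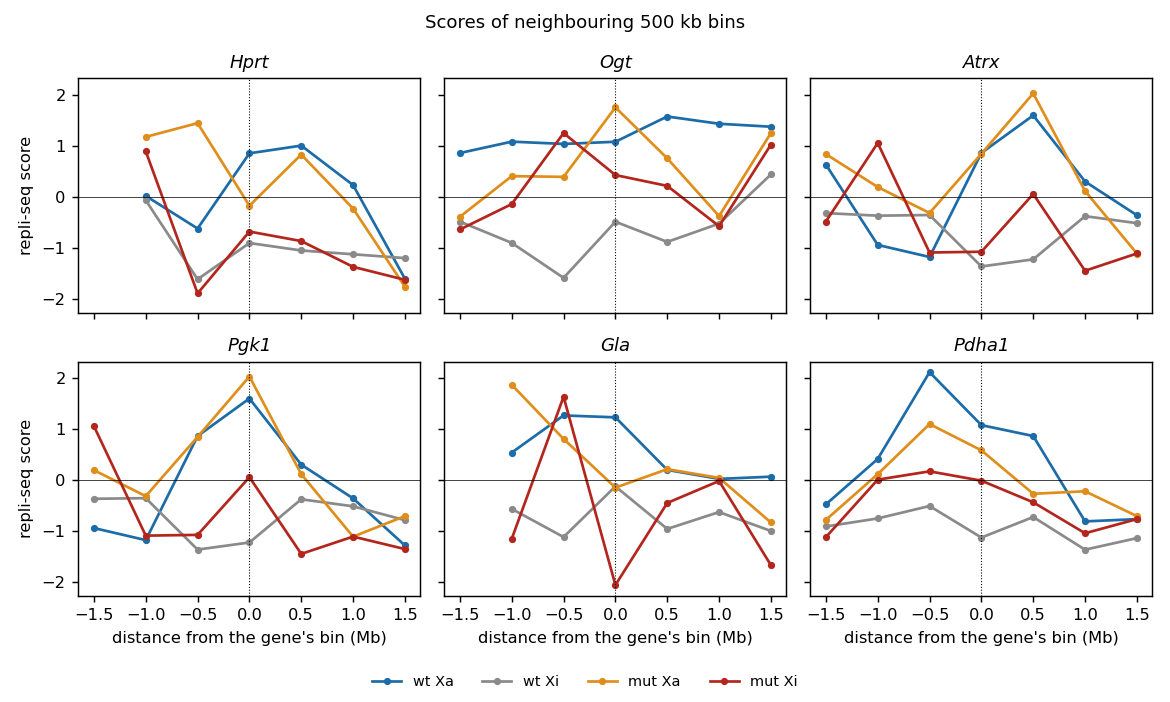
Scores (y axis) of the gene's bin and of 3 bins on each side against distance in Mb (x axis), with 1 panel per gene and 1 line per allele and genotype; bins that were not analysed are left blank. The red line (mut Xi) runs above the grey line (wt Xi) over most of the Ogt and Pdha1 panels, and at Gla it drops to −2.06 after a value of 1.63 in the bin before.

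The bins most alike over the 4 allele ranks, by Euclidean distance among 253 bins that neither held nor adjoined a member, were found for each gene. For Pgk1 it was the bin from 143000001 to 143500000, with Rtl9 and Chrdl1, at a distance of 9.54 points. Ogt was nearest to the bin from 149500001 to 150000000, with 3 predicted genes, at 11.3. The bin of Uba1, Cdk16, Araf and 10 other genes, from 20500001 to 21000000, was nearest to Pdha1, at 16.3. Atrx was matched by a bin with Suv39h1, Ebp, Porcn and Rbm3, from 8000001 to 8500000, at 15.1, and Hprt by the bin after that, with 12 genes mostly of the Ssx and Fthl17 families, at 14.9. Gla had the most distant match, 26.8 points away, in a bin from 18500001 to 19000000 without protein-coding genes.

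A list of 40 other widely expressed genes subject to X inactivation was set beside the 6. Of these genes, 7 share a bin with a member, 25 start in 18 other analysed bins, and 8 lie in bins that were not analysed. Their median wt gap was 2.19 and close to that of the 6 genes, 1.98. The median mut gap was 0.488, against 1.62 for the 6 genes, and the median Xi change 0.482, against 0.602. The Xi change was above 0 in 11 of the 18 bins. It was highest in the bin of Nono, at 2.84, and lowest in that of Prps1, at −0.720. The limits on scores had removed list bins with larger falls than Gla, of −5.55 at Xiap, −2.85 at Cul4b and −2.25 at Ndufa1. The other list bins left out changed by −1.16 at Pgrmc1 and 4.12 at Hsd17b10. Rpl36a and Hnrnph2, also on the list, share the Gla bin. The list therefore cannot show whether a fall of that size is particular to Gla. Among 9 analysed bins of genes reported to escape X inactivation, the median wt gap was 0.960 and the median wt Xi rank 87.7, against 47.0 for the 6 genes. Of these, 1 bin, with Ddx3x and Usp9x, is in both lists, and the bins of Xist and Pbdc1 also flank Ogt and Atrx. Bins of the giant genes Dmd, Il1rapl1 and Pcdh11x had wt Xa scores from −2.02 to −0.988, all below those of the 6 genes, and a median wt gap of −0.550. With 1 pooled value per bin, no test of these differences between lists was possible.

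**Figure D5:**
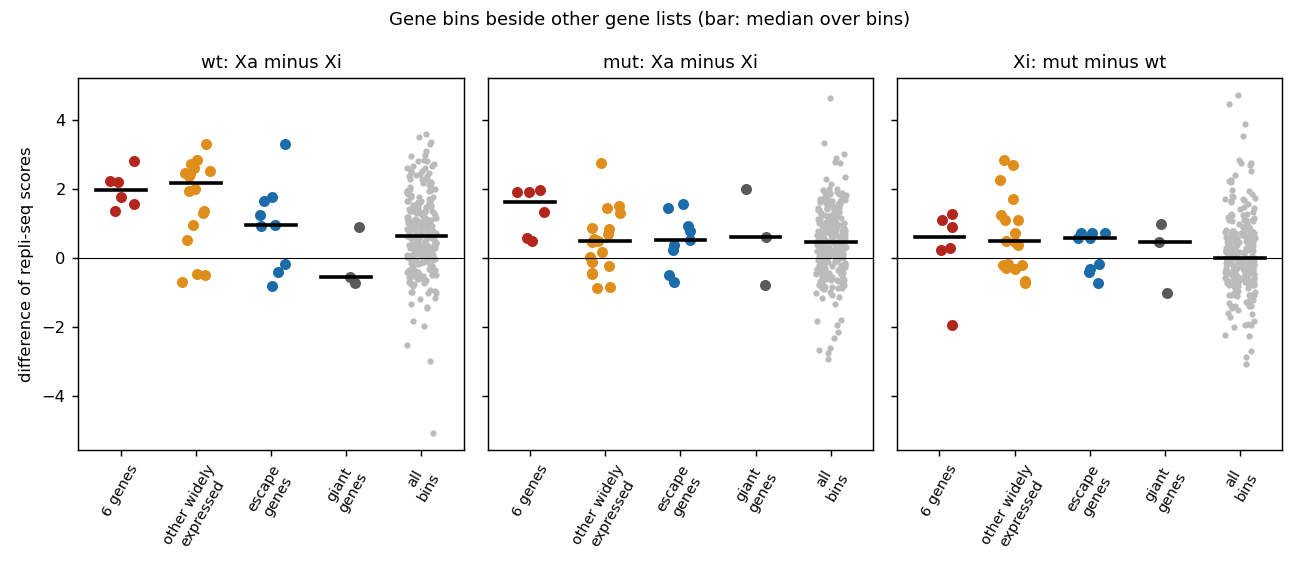
Differences of scores (y axis) for bins of the 6 genes, of other widely expressed genes (18 bins), of escape genes (9), of giant genes (3) and for all 269 analysed bins; each point is a bin and each bar a median. In wt the medians of the 6 genes and of the other widely expressed genes, 1.98 and 2.19, lie above that of all bins, 0.650, and Gla is the lowest red point in the right panel, at −1.93.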

How the data were processed

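Repli-seq reads of genomic DNA were mapped by the authors with bowtie2, as the submitters' processing notes also state, to mm10 with SNP positions masked, and split by allele with SNPsplit. Versions are not given in the sources used here. The deposited score, 1 per 500 kb bin of chromosome X, is per the authors' methods a Z-score of the read-normalized S/G1 ratio, although the range of the deposited values is too wide for a Z-score over these bins. Both replicates are pooled in each of the 6 tracks, and the bins that set the scale are not stated. Reads per bin are unknown, so precision could not be computed. The chromosome length in the files equals that of GRCm38, and GENCODE M21 was used for genes. Of 343 bins, 74 were left out because an allele track held a value that recurs in 20 or more bins, or a score beyond −3 to 3. Scores, ranks and their differences were read for the 6 members, and a bin's departure from the mean of its adjoining bins served as a yardstick. The genes named are the members, genes sharing their bins, the most alike bins by rank, and the ends of the gene lists. Members and lists were chosen with earlier results of these data known; a few flanking genes were named after their values were seen. Python 3.11.15, numpy 2.4.6, pandas 2.3.3 and matplotlib 3.10.9 were used, and the calculations were tested on simulated data. Alternatives covered smoothing, centring and scaling of tracks, the bins ranked, the bin of Hprt, and the pairing of Atrx with Pgk1.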

Additional observations from a re-analysis of the deposited data

How the results depend on the processing

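For the medians over the 6 genes, 55 alternatives were run. A value was taken to have moved when it differed by at least the bin-to-bin SD, divided by the square root of 6 for a median, and 51 did not. The median wt gap was 1.45 with tracks centred on their medians, and the median mut gap was then 1.07, with 5 of 6 genes above 0. With the mean of 3 bins the median mut gap was 1.07. The median wt gap in ranks was 23.0 points with Atrx and Pgk1 averaged. The count of 51 is no measure of stability, since the limit takes the 6 bins as independent, which Atrx and Pgk1 are not. It is also wide. The median narrowing in ranks went from 19.0 to 4.46 points with the mean of 3 bins without counting as moved. Likewise uncounted, the median Xi rank change went from 13.8 to 4.46 points with Atrx and Pgk1 averaged. Single genes moved more. Under the mean of 3 bins, the Xi change at Gla was 0.442 and 3.72 rank points, its mut rank gap −0.372 and its narrowing in ranks 10.8 points, all of other sign than for the bin alone; likewise the Xa change at Hprt was 0.288, its narrowing −0.244, and the narrowing in ranks at Pgk1 −1.86. The wt gap at Gla was −0.512 with tracks centred and divided by their median absolute deviation. Smoothing puts bins of other values beside the gene's own. No paired analysis was possible because the deposited tracks do not separate the replicates, so that no replicate could be left out either. Depth per bin is unknown and limits every value of a single bin.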
